A study of Homo sapiens with 10 samples.

Results

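HS-SY-II cells, an established human synovial sarcoma line, were compared after 48 h and after 24 h of exposure to 100 nM WA-68. The comparison rests on 4 of the 10 libraries of the series, 2 labelled 48 h and 2 labelled 24 h, chosen by these labels alone, and covers all 16382 genes with enough counts to be tested. WA-68 is a PROTAC, a molecule that brings a protein to a ubiquitin ligase so that the protein is degraded. Its target is BRD9, which reads acetylated chromatin within the non-canonical form of the BAF remodelling complex. The remaining groups are 12 h and 96 h of 100 nM WA-68 and the DMSO vehicle, with 2 labelled biological replicates a group, and they serve here to set the spread between replicates and to place the levels at 48 h and 24 h. All groups come from the same line, with no change of genotype between them. DMSO cultures carry no labelled harvest time and no vehicle libraries at 24 h or 48 h were used, so hours on WA-68 and hours in culture cannot be told apart in this comparison.

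Dividing cells pass through a DNA synthesis phase, for which histones and replication factors are made, and then through G2 and mitosis, for which cyclins A and B, the mitotic kinases and the motor proteins of the spindle are made. This order is set in part by the promoters: many genes of the earlier phase carry E2F sites, while many genes of the later phases carry a cell cycle homology region (CHR), bound by the MuvB complex with its partners B-MYB and FOXM1, together with CCAAT boxes bound by NF-Y. Synovial sarcoma is driven by the fusion of SS18, a BAF subunit, to an SSX protein, and dependence on BRD9 is known for this tumour type.

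At 48 h against 24 h, 32 genes rose and 92 fell at an adjusted p under 0.05, which is 0.195% and 0.562% of the genes tested. Without adjustment 603 genes were higher (3.68%) and 691 lower (4.22%) at p under 0.05. Of the 92 genes that fell, 61 belonged to the 9 cell cycle lists. Among them were 31 of the 44 measured G2/M genes and 15 of the 56 measured histone genes, where 0.562% of all genes tested fell. These lists were chosen with earlier results of these data known, so the counts are a description. The single gene with the smallest p was MUC6, which rose. Levels are in CPM, in which each library is brought to the same scaled total, and fold changes are log2 values of 48 h over 24 h unless another pair is named. The changes were small. Those of the 92 genes that fell lay between 0.37 and 0.77 on the log2 scale, with a median fold change of -0.50, and those of the 32 that rose between 0.34 and 1.33, with a median of 0.64. Only CA4 and the intronic transcript BACH1-IT2, both at low levels, reached a 2-fold difference. The median over all genes tested was -0.0031. In the neighbouring comparisons, the same test called 0 genes at 24 h against 12 h, where 299 were higher and 290 lower before adjustment, and 3 higher and 3 lower at 96 h against 48 h, or 0.0183% each way.

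**Figure D1:**
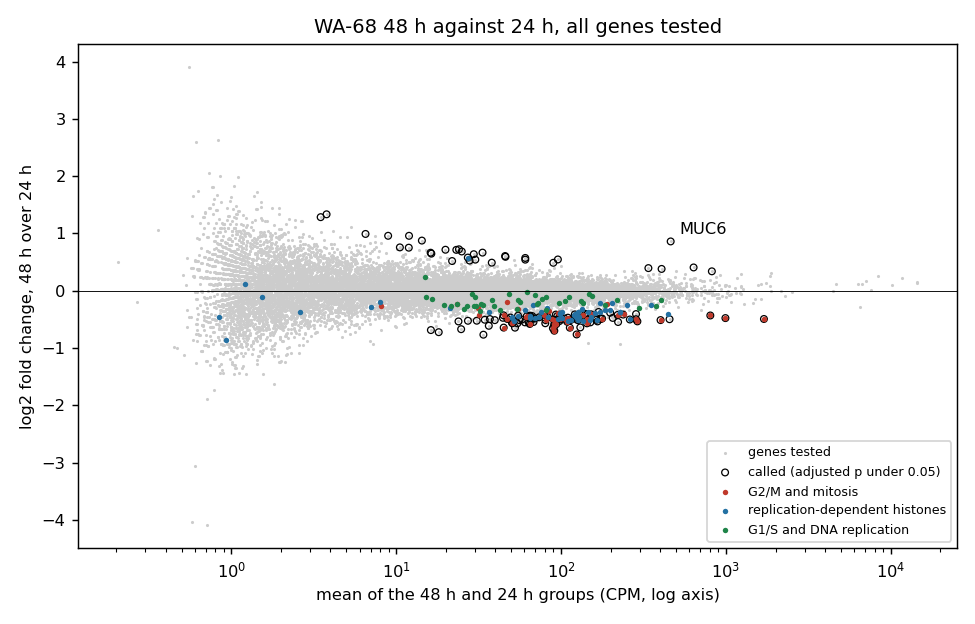
Each point is a gene, with its mean level over the libraries on the horizontal axis (CPM, log axis) and its log2 fold change at 48 h against 24 h on the vertical axis. Black circles mark the 32 genes that rose and the 92 that fell, red points G2/M genes, blue points histone genes and green points G1/S genes. The red points all lie below 0, the green points lie nearer to 0, and MUC6, the labelled point, lies at 0.86.

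How many genes were called depended on the libraries that set the spread. The counts assigned to genes were 8680831 and 7982460 in the 48 h libraries and 7931031 and 10136473 in the 24 h libraries, within a range of 7349744 to 13200051 over the series. On the second principal component the second DMSO replicate and the second 96 h replicate lay away from the other 8, and the chi-square per gene between replicates was 2.58 at 48 h and 2.11 at 24 h, against 6.63 in DMSO and 9.01 at 96 h. A fit without those libraries called 168 genes higher and 272 lower, among them all 32 and all 92, and a fit to the 4 libraries of the comparison called 163 and 261. In the other direction, leaving out 24 h replicate 1 left 2 genes higher and 0 lower, 24 h replicate 2 left 3 and 8, 48 h replicate 1 left 1 and 1, 48 h replicate 2 left 1 and 0, and either 12 h replicate left 20 and 54. Leaving out a library of DMSO or 96 h gave 57 to 67 higher and 127 to 155 lower, again with all 32 and all 92 among them. The 4 fits without a library of 48 h or 24 h have a single library at 48 h or at 24 h, which is assumed to vary like the other groups. Mitochondrially encoded transcripts held 8.75% and 8.46% of counts at 48 h and 7.90% and 7.76% at 24 h, and their part in the results was not tested.

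The labelled cell type was checked against its markers. TLE1, a corepressor used as a diagnostic marker of synovial sarcoma, stood at 214 and 192 CPM at 48 h and at 204 and 212 CPM at 24 h, and SS18, SSX1, BCL2, FZD10, SIM2, CD99 and VIM were all measured. None of 10 leukocyte genes passed the filter on low counts, and their summed level was 0.116 and 0.247 CPM at 48 h and 0.377 and 0.294 CPM at 24 h. Of 8 endothelial genes only ERG passed. The fibroblast list summed to 2226 and 2250 CPM at 48 h and to 2041 and 2120 CPM at 24 h, and 0 of its 6 measured members were called, with 1 higher before adjustment. The members with the most counts, LUM and DCN, were present in every library of this single-line culture.

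The promoters shown first are those of the 2 G2/M genes that fell with the smallest p, both of them cyclin genes. They are RefSeq promoters on GRCh38.p14, 250 bases before to 50 after the annotated start, and the capitals mark the letters matched. CCNB1 encodes cyclin B1, the activator of CDK1 at entry into mitosis, and its promoter lies at chr5:69166900-69167199 on the plus strand, with CCAAT at -87 to -83 and at -55 to -51 from the start. CCNA2 encodes cyclin A2, which acts in S phase and G2, and its promoter lies at chr4:121823834-121824133 on the minus strand, with CTTGAA at -87 to -82 and at -28 to -23 and the reverse complement of CCAAT between them, at -56 to -52.
CCNB1: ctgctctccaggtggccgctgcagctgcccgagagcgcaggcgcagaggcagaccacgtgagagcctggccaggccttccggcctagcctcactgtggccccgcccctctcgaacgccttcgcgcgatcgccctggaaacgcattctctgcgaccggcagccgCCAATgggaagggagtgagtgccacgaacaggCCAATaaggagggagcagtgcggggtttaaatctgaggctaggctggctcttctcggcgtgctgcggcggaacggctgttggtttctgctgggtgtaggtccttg
CCNA2: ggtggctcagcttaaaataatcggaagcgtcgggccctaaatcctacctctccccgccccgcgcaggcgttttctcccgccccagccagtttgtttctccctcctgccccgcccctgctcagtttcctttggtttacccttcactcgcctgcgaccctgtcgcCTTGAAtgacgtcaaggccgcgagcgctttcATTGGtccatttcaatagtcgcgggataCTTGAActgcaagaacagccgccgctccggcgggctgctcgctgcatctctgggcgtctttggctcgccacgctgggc
The CHR forms searched on both strands were TTTGAA, the less common form TTCGAA, and CTTGAA as in CCNA2. None of the 3 was present in this window of CCNB1.

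The most common form, TTTGAA, is shown in 30-base windows from 8 G2/M genes that fell and hold it, on the strand that reads TTTGAA, with the match nearest the start in capitals. They are those with the smallest p whose match leaves room for such a window within the promoter. CENPF, whose match lies past the start and too near the promoter's end, is not shown. PLK1, ESPL1, KPNA2, CDCA8, KIF4A, CDC20 and CCNB2 carry it on the plus strand, and GTSE1 has it on the minus strand.
PLK1, chr16:23678848-23678877: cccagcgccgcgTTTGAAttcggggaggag
ESPL1, chr12:53268256-53268285: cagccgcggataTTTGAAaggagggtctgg
KPNA2, chr17:68035755-68035784: cgaggtggacccTTTGAAcgcagtcgccct
CDCA8, chr1:37692481-37692510: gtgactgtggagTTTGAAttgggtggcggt
KIF4A, chrX:70290058-70290087: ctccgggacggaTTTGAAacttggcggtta
CDC20, chr1:43358904-43358933: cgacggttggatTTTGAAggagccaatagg
CCNB2, chr15:59105105-59105134: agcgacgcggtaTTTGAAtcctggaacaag
GTSE1, chr22:46296832-46296861: ccgattggtcggTTTGAAaagggctccgag
The match begins 23 to 34 bases before the start in CDCA8, GTSE1, PLK1, CCNB2, ESPL1 and KIF4A, at -65 in CDC20 and 33 bases past the start in KPNA2.

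Over the G2/M list, 36 of 44 genes had a RefSeq promoter, and 25 of these (69.4%) held TTTGAA on either strand, against 4212 of all 27305 promoters (15.4%) and 9.66% of the promoters of genes tested. The match began within 50 bases of the start in 20 of the 36 (55.6%), against 4.67% of all promoters, and 2 of the 25 overlapped a CCAAT match. CCAAT was present in 29 of the 36 (80.6%), against 35.7% of all promoters. In the G1/S list the letters were otherwise: 1 of 35 promoters (2.86%) held TTTGAA, while 18 (51.4%) held an E2F form, against 2 of 36 G2/M promoters (5.56%) and 3.33% of all promoters. Histone promoters held CCAAT in 44 of 53 (83%) and TTTGAA in 34%. Among the 92 genes that fell, 75 had a promoter and 44 of these (58.7%) held TTTGAA, and among the 32 that rose 2 of 18 (11.1%) did. The 92 include 31 genes of the G2/M list, so their share in part counts the same promoters again. The motifs were chosen with earlier results of these data known, so these shares are a description. The E2F forms, searched on both strands, were TTTGGCGC, TTTCCCGC, TTTCGCGC and TTTGCCGC. A match of letters is a description of the promoter and not a binding site.

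G2/M and mitosis genes moved together. Of the 44 genes of the list, all of them measured, 31 fell and 0 rose, where 0.562% of all genes tested fell. All 44 had a fold change below 0, between -0.20 and -0.76 with a median of -0.49, where 50.8% of all genes tested were below 0. Both 48 h libraries were below both 24 h libraries for all 44, which holds for 21.4% of all genes tested. The list was known from earlier results of these data to turn at this step, so its count is a description. The summed level of the 44 was 6763 and 6726 CPM at 48 h and 9719 and 9130 CPM at 24 h. Of the 5 groups, 48 h had the lowest sums and 24 h the highest: DMSO libraries held 8490 and 8517 CPM, 12 h libraries 8535 and 8299 CPM, and 96 h libraries 7352 and 7656 CPM. In bulk RNA, fewer cells in G2 and mitosis and less of these mRNAs per cell cannot be told apart.

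The cyclins and their kinase partner open the mitotic programme. CCNB1 had 89.3 and 87.1 CPM at 48 h and 142 and 134 CPM at 24 h, against 120.1 CPM in both DMSO libraries. The 48 h and 24 h libraries did not overlap, the DMSO libraries lay between them, and the log2 fold change at 48 h against 24 h was -0.64 (SE 0.0906, adjusted p = 0.0022; at most 0.122 without any 1 library). CCNA2 had 71.2 and 72.0 CPM at 48 h and 113 and 107 CPM at 24 h, a fold change of -0.62 (SE 0.0921, adjusted p = 0.00228), with DMSO again between them at 95.8 and 88.2 CPM. CCNB2, the second B-type cyclin, had 77.8 and 71.7 CPM at 48 h and 112 and 100.5 CPM at 24 h. CDK1, the kinase that these cyclins activate, had 69.8 and 75.7 CPM at 48 h and 107 and 98.4 CPM at 24 h. CDK1 was not called, with a fold change of -0.50 (SE 0.131, adjusted p = 0.0893), where that of CCNB2, which fell, was -0.51. Both 48 h libraries of CDK1 were below both 24 h libraries, which holds for 21.4% of all genes tested. CDC25B and CDC25C, phosphatases that activate CDK1, stood at fold changes of -0.23 each, and neither passed.

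Several mitotic kinases fell. PLK1, a kinase of mitotic entry and spindle assembly, had 72.8 and 66.0 CPM at 48 h and 119 and 107 CPM at 24 h, with a log2 fold change of -0.70 (SE 0.115, adjusted p = 0.00573). The 48 h values were also below the 93.6 and 114 CPM of DMSO. NEK2, a kinase that separates the centrosomes and was not in the list, had 41.7 and 40.3 CPM at 48 h and 65.1 and 63.3 CPM at 24 h, a fold change of -0.64 (SE 0.101, adjusted p = 0.003). Its DMSO libraries, at 49.6 and 44.6 CPM, lay nearer to the 48 h level, and NEK2 was called higher at 24 h against DMSO. AURKA, the centrosomal Aurora kinase, had 85.7 and 78.3 CPM at 48 h and 119 and 113 CPM at 24 h. AURKB, the catalytic subunit of the chromosomal passenger complex, had 41.5 and 40.1 CPM at 48 h and 66.9 and 54.5 CPM at 24 h, and its partners BIRC5, CDCA8 and INCENP fell as well. BIRC5, or survivin, stood at 72.7 and 72.9 CPM at 48 h and 107 and 111 CPM at 24 h (fold change -0.59, SE 0.0892, adjusted p = 0.00228). Of the kinases, phosphatases and checkpoint proteins of the list, TTK and BUB1 fell, while BUB1B (-0.36, adjusted p = 0.0911), WEE1 (-0.32) and MAD2L1 (-0.20) did not pass.

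**Figure D2:**
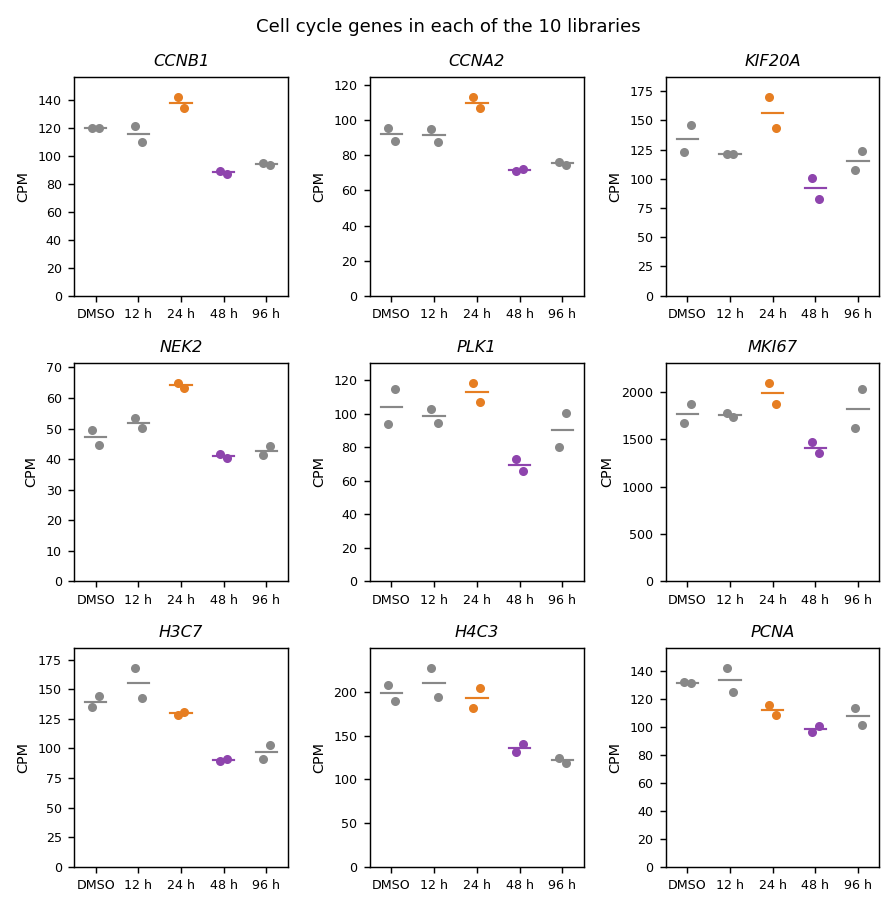
The level of 9 cell cycle genes is plotted in each library (CPM, linear axis from 0) for DMSO and for 12, 24, 48 and 96 h of WA-68. Points are libraries, short bars mark group means, and the 24 h and 48 h libraries are orange and purple. CCNB1, CCNA2, KIF20A, NEK2 and PLK1 are highest at 24 h and have fallen at 48 h. H3C7 and H4C3 have lower means at 24 h than at 12 h and lower again at 48 h. PCNA shows the smallest difference between 48 h and 24 h.

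Spindle motors and exit factors followed. KIF20A, a kinesin of the central spindle, had 101 and 83.1 CPM at 48 h and 170.0 and 143 CPM at 24 h. Its fold change of -0.76 (SE 0.114, adjusted p = 0.00228) was the largest of the list, and its replicates differed from each other more than those of the cyclins. TPX2, a spindle assembly factor, stood at 244 and 231 CPM at 48 h and 349 and 338 CPM at 24 h. CDC20 and UBE2C, an activator and a conjugating enzyme of the anaphase-promoting complex, had fold changes of -0.65 and -0.58. PTTG1 and ESPL1, which encode securin and the separase that it holds inactive, had fold changes of -0.64 and -0.57, with adjusted p of 0.00908 and 0.00661. The proliferation marker MKI67 had 1473 and 1353 CPM at 48 h and 2100.1 and 1877 CPM at 24 h, a fold change of -0.49 (SE 0.0958, adjusted p = 0.0119), and TOP2A, which untangles DNA before segregation, one of -0.43. NUSAP1, a spindle protein, had few counts, 7.16 and 7.52 CPM at 48 h and 9.29 and 8.41 CPM at 24 h, and its fold change of -0.26 (SE 0.197) did not pass.

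Each of the 4 pairings of a 48 h library with a 24 h library gave 44 of 44 genes lower, with a median log2 ratio between -0.42 and -0.55. These counts follow from the libraries not overlapping for any of the 44, given above, and add nothing to it. The count of called members changed with the library left out. Without 24 h replicate 1 or 48 h replicate 2, 0 of the 44 were called, 1 without 48 h replicate 1, 4 without 24 h replicate 2, and 24 without either 12 h replicate. Leaving out a DMSO or a 96 h library left 35 or 36 called, and DESeq2 and limma-voom on all 10 libraries called 31 and 30. At 24 h against DMSO the list had a median of 0.16 with 0 members called, where 1.34% of all genes were higher and 2.25% lower, and at 48 h against DMSO a median of -0.34 with 28 called lower, where 5.38% of all genes were lower. These 3 comparisons share libraries and their values stand side by side as levels, not as separate evidence.

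Of the 92 genes that fell, 31 were in none of the 35 lists. They include PIMREG, a mitotic regulator, with 25.4 and 24.5 CPM at 48 h and 45.8 and 39.5 CPM at 24 h and the largest fall of all (fold change -0.77, SE 0.116, adjusted p = 0.00228). IQGAP3, a scaffold protein of proliferating cells, had 105 and 99.4 CPM at 48 h and 168 and 151 CPM at 24 h, while DMSO libraries had 109.9 and 126 CPM. It was 1 of 4 genes, with NEK2, EZR and CKAP2L, that fell at 48 h against 24 h and were called higher at 24 h against DMSO. EZR, which links actin to the membrane, had 31.7 and 25.9 CPM at 48 h and 47.0 and 41.4 CPM at 24 h, against 26.7 and 23.3 CPM in DMSO, so that its 48 h libraries overlapped the vehicle. Picked after their values were seen, HMGB2, KIFC1, KIF14, KIF18B, CEP55, RACGAP1, SPAG5 and TROAP also fell, with fold changes of -0.47 to -0.57. The helicase gene PIF1, with 19.1 ± 1.47 CPM at 48 h and 30.5 ± 4.97 CPM at 24 h (SD, n = 2 each), and the exonuclease gene REXO5 had fold changes of -0.67 and -0.72. TMPO-AS1 (-0.69) lies antisense to TMPO, and since the strand setting of the counting is not given in the sources used here, reads of the pair may have been mixed. Of the 92 genes that fell, 59 were called lower at 48 h against DMSO, where 5.38% of all genes were. At 24 h against DMSO 0 of them were called lower, where 2.25% of all genes were. The 48 h and 24 h libraries that picked the 92 enter these comparisons too, so the counts are a description.

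Kinetochore and centromere genes fell in part. Of 32 measured, 7 fell and 30 lay below 0, with a median of -0.29. Over all genes tested, 0.562% fell and 50.8% lay below 0. The outer kinetochore genes NDC80, SPC24, SKA1, SKA3 and KNL1 fell, as did HJURP, the chaperone of the centromeric histone, and CENPA, that histone itself. NDC80 had 75.3 and 85.0 CPM at 48 h and 121 and 111 CPM at 24 h (fold change -0.53, SE 0.0969, adjusted p = 0.00828). HJURP had 52.6 and 50.5 CPM at 48 h and 79.7 and 72.5 CPM at 24 h (fold change -0.56, adjusted p = 0.00908). Their 48 h and 24 h libraries did not overlap. CENPQ, an inner kinetochore gene with few counts, was above 0 at 0.27 (SE 0.229), with overlapping libraries.

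Among 21 cohesin and condensin genes, 4 fell, against 0.562% of all genes tested. They were the condensin subunits NCAPD2, NCAPG and NCAPG2, and CDCA5, or sororin, which holds sister chromatids together until mitosis. NCAPD2 had 396 and 359 CPM at 48 h and 566 and 500.1 CPM at 24 h (fold change -0.50, SE 0.0937, adjusted p = 0.00943). The cohesin ring and loader genes SMC3, STAG1, STAG2, PDS5A, PDS5B and NIPBL, which act through the whole cycle, had fold changes between -0.04 and 0.02 and did not pass. Neither the 7 kinetochore nor the 4 condensin and cohesin genes kept a call without 24 h replicate 1 or without 48 h replicate 2, where the comparison called 0 genes lower.

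Replication-dependent histone genes, made in S phase, also fell. Of 58 in the list, 56 were measured and 54 of these lay below 0, with a median of -0.41, where 50.8% of all genes did. Of the 56, 15 fell and 1, H2BC6, rose, where 0.562% and 0.195% of all genes tested did. Their mRNAs normally end in a stem-loop without a poly(A) tail, and these libraries were poly(A) selected. H3C7 had 89.4 and 90.7 CPM at 48 h and 128 and 131 CPM at 24 h (fold change -0.53, SE 0.0988, adjusted p = 0.00943), with 135 and 144 CPM in DMSO. H4C3 had 131 and 140.3 CPM at 48 h and 181 and 204 CPM at 24 h (fold change -0.51, SE 0.0992, adjusted p = 0.0126). H2BC3 and H2BC15 had fold changes of -0.46 and -0.51. In these genes the 48 h libraries lay below both the 24 h and the DMSO libraries. H2BC6 went the other way, with 34.9 and 30.3 CPM at 48 h and 21.2 and 22.4 CPM at 24 h (fold change 0.58, SE 0.124, adjusted p = 0.025). Histone genes are near-identical copies, and how reads that map to several genes were counted is not given in the sources used here, so the split between single copies is uncertain.

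The summed level of the 58 histone genes was 5728 and 5369 CPM at 48 h and 7424 and 7135 CPM at 24 h. Unlike the G2/M sum, it was lower at 24 h than in DMSO (8010 and 8805 CPM) or at 12 h (8893 and 7934 CPM). At 48 h against DMSO 47 of the 56 were called lower, where 5.38% of all genes were. At 24 h against DMSO 2 of the 56 were, where 2.25% of all genes were. The count of 15 at 48 h against 24 h was 21 in DESeq2 and 14 in limma-voom, was 0 without any 1 of the 48 h or 24 h libraries, 8 without either 12 h library, and 29 to 34 without a library of DMSO or 96 h. SLBP, whose protein binds the histone stem-loop, stood at 64.4 and 59.6 CPM at 48 h and at 59.8 and 65.9 CPM at 24 h, with overlapping libraries and a fold change of -0.02 (SE 0.0997).

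**Figure D3:**
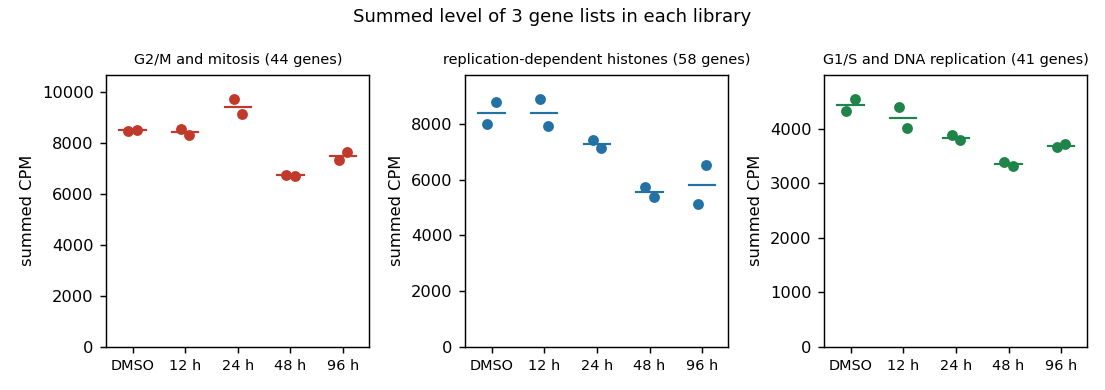
Summed CPM of the G2/M list (44 genes), the histone list (58 genes) and the G1/S list (41 genes) is plotted for each library over DMSO and 12, 24, 48 and 96 h of WA-68. Points are libraries and short bars mark group means. The G2/M sum peaks at 24 h (9719 and 9130 CPM) and is lowest at 48 h (6763 and 6726 CPM), while the histone and G1/S sums are lower at 24 h than in DMSO.

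G1/S and DNA replication genes differed less. Of 41, all measured, edgeR called 0, as did DESeq2 and limma-voom. At an unadjusted p under 0.05, 14 were lower, against 4.22% of all genes tested. Fold changes were below 0 for 40, against 50.8% of all genes tested, with a median of -0.21. The sum was 3385 and 3320 CPM at 48 h and 3887 and 3790 CPM at 24 h, against 4318 and 4541 CPM in DMSO. PCNA, the sliding clamp of DNA polymerases, had 96.6 and 101 CPM at 48 h and 116 and 109 CPM at 24 h, with libraries that did not overlap and a fold change of -0.19 (SE 0.0961, adjusted p = 0.691). MCM4, a subunit of the replicative helicase, had 384 and 374 CPM at 48 h and 432 and 417 CPM at 24 h (fold change -0.16, SE 0.0858). DNMT1, the maintenance DNA methyltransferase, had a fold change of -0.27 (SE 0.0872, adjusted p = 0.242), and DNA ligase I, LIG1, one of -0.34 (adjusted p = 0.148). CCNE1, the cyclin of the G1/S transition, was the member above 0, with 15.4 and 17.3 CPM at 48 h and 12.8 and 14.8 CPM at 24 h. Against DMSO, 20 of the 41 were called lower at 48 h and 3 at 24 h, where 5.38% and 2.25% of all genes were.

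Nucleotide synthesis, which feeds replication, had 2 of 29 genes called, both lower, where 0.562% of all genes tested fell. TK1, thymidine kinase, had 41.7 and 39.7 CPM at 48 h and 64.3 and 55.9 CPM at 24 h (fold change -0.56, SE 0.111, adjusted p = 0.0142). TYMS, thymidylate synthase, had 254 and 236 CPM at 48 h and 329 and 321 CPM at 24 h (fold change -0.41, SE 0.0893, adjusted p = 0.0293). Both make thymidine nucleotides, and the ribonucleotide reductase gene RRM2, with a fold change of -0.33 (adjusted p = 0.119), did not pass. In the list of recombination and Fanconi repair genes 0 of 39 were called and 13 were lower before adjustment, against 4.22% of all genes. FANCI and TIMELESS, the members with the most counts, had fold changes of -0.21 and -0.28.

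The transcription factors of the cycle were called in no case. Over 20 genes the median was -0.12, with 6 lower before adjustment in edgeR, against 4.22% of all genes tested. DESeq2 and limma-voom also called 0. FOXM1, the factor of G2/M genes, had 180.5 and 165 CPM at 48 h and 249.9 and 223 CPM at 24 h. Its libraries did not overlap, but the DMSO libraries alone spanned 207 and 269 CPM, and the fold change of -0.45 (SE 0.122) had an adjusted p of 0.102. MYBL2, which encodes B-MYB, had 156 and 143 CPM at 48 h and 202 and 192 CPM at 24 h (fold change -0.40, SE 0.116, adjusted p = 0.15). E2F1 had 46.5 and 46.4 CPM at 48 h and 54.5 and 51.0 CPM at 24 h (fold change -0.18, adjusted p = 0.765), and RB1, the pocket protein that restrains E2F factors, one of -0.08.

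Of 14 measured CDK inhibitors, D-type cyclins and their kinases, 2 fell, against 0.562% of all genes tested. They were CDKN2C, the INK4 inhibitor p18, and CDKN3, a phosphatase that acts on CDK2 and whose mRNA is known to peak in mitosis. CDKN2C had 55.5 and 55.9 CPM at 48 h and 78.7 and 76.6 CPM at 24 h (fold change -0.48, SE 0.104, adjusted p = 0.0277). CDKN3 had 23.3 and 21.3 CPM at 48 h and 32.8 and 31.6 CPM at 24 h (fold change -0.52, SE 0.119, adjusted p = 0.0365). CDKN1A, the p53-induced inhibitor p21, had 24.3 and 19.2 CPM at 48 h and 20.8 and 19.6 CPM at 24 h, with overlapping libraries and a fold change of 0.11 (SE 0.136). CCND1 and CCND2, cyclins of G1, lay above 0 at 0.22 and 0.26 and did not pass (adjusted p = 0.433 and 0.225). CCND2 had 336 and 322 CPM at 48 h and 276 and 273 CPM at 24 h, against 484 and 448 CPM in DMSO, and it was called lower than DMSO at both times.

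The genes that rose shared fewer roles: 4 of the 32 belonged to any of the 35 lists. MUC6, a gel-forming mucin of the stomach, had 613 and 579.6 CPM at 48 h and 363 and 294 CPM at 24 h, with 206 and 222 CPM in DMSO. The 3 groups did not overlap, and the log2 fold change at 48 h against 24 h was 0.86 (SE 0.108, adjusted p = 0.00062). At 12 h MUC6 had 218 and 202 CPM, and its fold change at 24 h against 12 h was 0.64 (SE 0.109, adjusted p = 0.0796). Its step from 24 h to 48 h less its step from 12 h to 24 h was 0.22 (SE 0.187), which was not called. MUC6 was the only gene of the 124 to keep its call without each of the 10 libraries in turn, with adjusted p of at most 0.0322. MUC2, an intestinal gel-forming mucin in the same chromosome 11 cluster (MUC6 at chr11:1012821-1036706 and MUC2 at chr11:1074875-1110511, GENCODE on GRCh38), rose with few counts: 14.1 and 12.3 CPM at 48 h and 8.29 and 7.44 CPM at 24 h (fold change 0.76, SE 0.171, adjusted p = 0.0365). Unlike MUC6, MUC2 at 24 h stood below its DMSO libraries, at 9.33 and 9.10 CPM, a difference that was not called (adjusted p = 0.55). The cluster's other mucins, MUC5AC and MUC5B, had fold changes of 0.56 (SE 0.297) and 0.37 (SE 0.240) and did not pass. Of 13 mucins in the list 5 were measured, and their summed level over the list was 648 and 615 CPM at 48 h and 390 and 317 CPM at 24 h.

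Among the other genes that rose, COL5A1, a fibrillar collagen chain, had 489 and 433 CPM at 48 h and 340.1 and 368 CPM at 24 h (fold change 0.38, SE 0.0885, adjusted p = 0.0422). It was the 1 call among 29 measured matrix and mesenchymal genes, of which 4 were higher before adjustment and whose median was 0.04. Over all genes tested, 0.195% rose and 3.68% were higher before adjustment. MATN2, a matrix adaptor protein, had 31.1 and 26.8 CPM at 48 h and 14.3 and 20.5 CPM at 24 h, with 12.5 and 9.69 CPM in DMSO (fold change 0.71, SE 0.160, adjusted p = 0.0351). SCUBE1 and SCUBE3, secreted or surface proteins with EGF-like repeats, rose by fold changes of 0.61 and 0.49, and SCUBE1 had 57.7 and 53.2 CPM at 48 h and 32.7 and 39.8 CPM at 24 h. The basement membrane gene FRAS1 had 929 and 907 CPM at 48 h and 723 and 729 CPM at 24 h, a fold change of 0.34 (SE 0.0789, adjusted p = 0.0422). SCUBE3 and FRAS1 were picked after their values were seen. CDH23, an atypical cadherin of hair cells, had 39.9 and 42.1 CPM at 48 h and 27.0 and 24.8 CPM at 24 h (fold change 0.67, SE 0.121, adjusted p = 0.00823), and 64.5 and 61.0 CPM at 96 h.

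TMEM132B, a transmembrane protein, had 75.5 and 69.8 CPM at 48 h and 46.3 and 51.2 CPM at 24 h (fold change 0.57, SE 0.0970, adjusted p = 0.00661). DOC2B and BAIAP3, calcium-dependent factors of vesicle release, had fold changes of 0.59 and 0.72. DOC2B stood at 57.2 and 53.5 CPM at 48 h and 36.5 and 36.9 CPM at 24 h, and BAIAP3 at 24.6 and 24.9 CPM at 48 h and 15.1 CPM in both 24 h libraries. LRRC7, a postsynaptic density protein, had 67.7 and 76.2 CPM at 48 h and 51.2 and 47.7 CPM at 24 h, and GRIN1, an NMDA receptor subunit, 16.1 and 13.8 CPM at 48 h and 9.54 and 8.32 CPM at 24 h. SHANK1, a synaptic scaffold, rose by 0.49. The fixed list of neuronal genes did not contain them. Of its 14 measured members edgeR called 0, as did DESeq2 and limma-voom. The median was 0.15, and 5 were higher before adjustment, where 3.68% of all genes tested were. MAP2 of that list, a dendritic microtubule protein, had 82.4 and 83.3 CPM at 48 h and 66.8 and 62.8 CPM at 24 h, against 33.9 and 34.4 CPM in DMSO, with an adjusted p of 0.0837.

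APC2, a homologue of the Wnt regulator APC, had 32.1 and 27.9 CPM at 48 h and 16.7 and 19.5 CPM at 24 h, against 22.2 and 25.2 CPM in DMSO (fold change 0.72, SE 0.144, adjusted p = 0.0142). ASCL2, a basic helix-loop-helix factor of intestinal stem cells and a Wnt target there, had 12.9 and 10.7 CPM at 48 h and 5.65 and 6.46 CPM at 24 h (fold change 0.96, SE 0.223, adjusted p = 0.0422). Both stood below their DMSO level at 24 h and above it at 48 h, but neither was called against DMSO at either time. The adjusted p at 24 h and 48 h was 0.172 and 0.118 for APC2 and 0.153 and 0.313 for ASCL2. Of 15 measured Wnt targets and inhibitors 0 were called by edgeR, DESeq2 or limma-voom, and the median was 0.15. Higher before adjustment were 6 of them and 3.68% of all genes tested. MLXIPL, the carbohydrate response factor ChREBP, rose by 0.66 and PADI2, a protein that converts arginine to citrulline, by 0.64. KCNH3, a potassium channel gene, had 7.74 and 9.62 CPM at 48 h and 4.52 and 4.21 CPM at 24 h (fold change 0.99), and it too was near its DMSO level, 7.69 and 7.21 CPM, at 48 h.

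Beside DMSO, some of the risers stood above it at 48 h and others near it. Of the 32, 22 were called higher at 48 h against DMSO, where 4.01% of all genes were. At 24 h against DMSO 5 were called higher, where 1.34% of all genes were. The 48 h and 24 h libraries that picked the 32 enter these comparisons too, so the counts are a description. PTPRG, a receptor phosphatase, and CA4, a membrane carbonic anhydrase, were called lower at 24 h against DMSO. PTPRG had 712 and 740.0 CPM at 48 h and 561 and 535 CPM at 24 h, against 725 and 665 CPM in DMSO, so its 48 h libraries were at the vehicle level. CA4 had 5.43 CPM in both 48 h libraries and 2.13 and 2.15 CPM at 24 h, against 4.51 and 3.78 CPM in DMSO. Its fold change of 1.33 (SE 0.269, adjusted p = 0.0155) rests on few counts. BACH1-IT2, the other gene past 2-fold, had 4.04 and 5.92 CPM at 48 h and 1.63 and 2.35 CPM at 24 h, and it lies within BACH1, whose reads cannot be told apart from it by position alone.

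**Figure D4:**
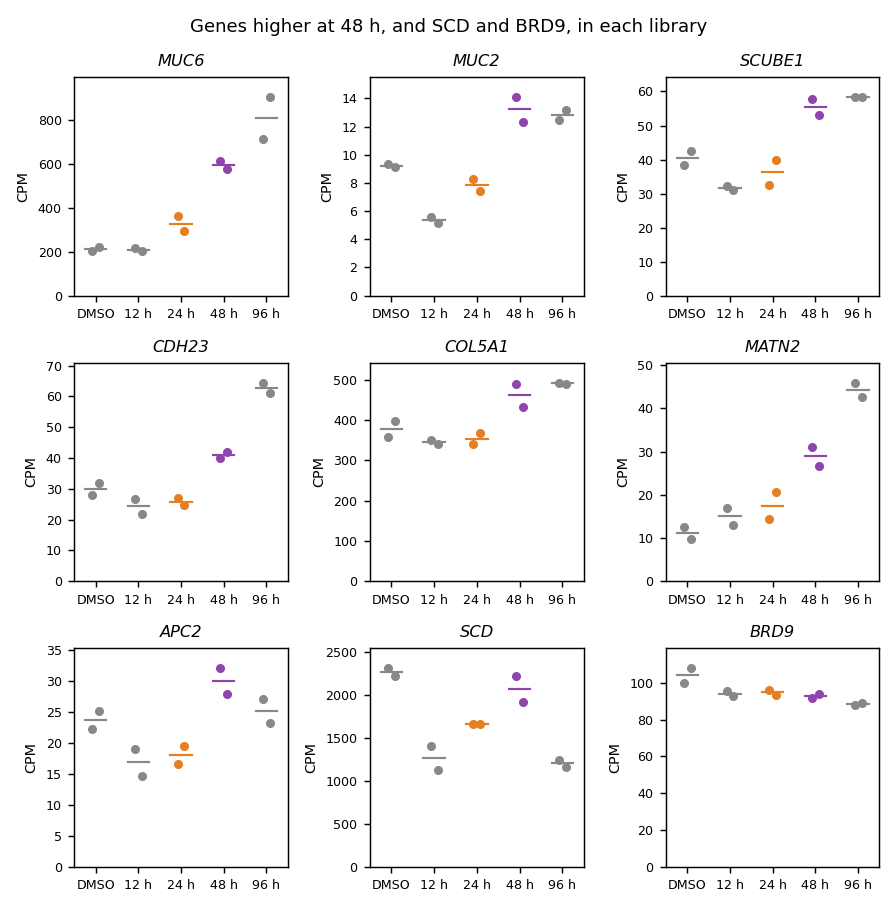
The level of 8 genes with higher 48 h than 24 h values and of BRD9 is plotted in each library (CPM, linear axis from 0) for DMSO and for 12, 24, 48 and 96 h of WA-68. Points are libraries and short bars mark group means, with 24 h in orange and 48 h in purple. MUC6, CDH23 and MATN2 are higher still at 96 h, APC2 and MUC2 dip at 12 h or 24 h before 48 h, SCD is high at 48 h between lower groups, and BRD9 is nearly level.

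The gene of the degraded protein was not called at the RNA level within this step. BRD9 mRNA had 91.7 and 94.1 CPM at 48 h and 96.3 and 93.6 CPM at 24 h, with overlapping libraries and a fold change of -0.03 (SE 0.0895, adjusted p = 0.982). RNA counts say nothing of the BRD9 protein. SS18 had 225 and 229 CPM at 48 h and 237 and 244 CPM at 24 h (fold change -0.08), and SSX1 47.7 and 49.2 CPM at 48 h and 54.6 and 54.7 CPM at 24 h (fold change -0.17, adjusted p = 0.752). MYC, called lower than DMSO at both times, had 150.5 and 122 CPM at 48 h and 142 and 129.7 CPM at 24 h, against 280.5 and 329.8 CPM in DMSO. Its fold change within the step was 0.01 (SE 0.119).

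The other lists gave 0 calls in edgeR, in DESeq2 and in limma-voom. They were p53 targets (23 measured), BCL2 family (14), MYC and ribosome biogenesis (30), cytosolic ribosomal proteins (79), cholesterol and fatty acid synthesis (31), unfolded protein response (25), heat shock (14), hypoxia and glycolysis (26), nuclear-encoded respiratory chain (36), mitochondrially encoded transcripts (13), lysosome and autophagy (25) and interferon response (24). YAP and serum response (22), FGF and ERK response (19), TGF-beta and BMP (20), epithelial markers (8), BAF subunits (29), Polycomb subunits (32) and synovial sarcoma associated genes (18) also had 0. Their median fold changes lay between -0.12 (hypoxia and glycolysis) and 0.13 (mitochondrially encoded transcripts). Of the ribosomal protein genes 0 of 79 were higher or lower even before adjustment. The lists with the most genes at an unadjusted p under 0.05 were cholesterol and fatty acid synthesis, with 7 higher and 1 lower, and hypoxia and glycolysis, with 1 higher and 4 lower. Over all genes tested, 3.68% were higher and 4.22% lower. SCD, the stearoyl-CoA desaturase, had 2221 and 1921 CPM at 48 h and 1661 and 1668 CPM at 24 h (fold change 0.32, SE 0.0936, adjusted p = 0.165). An adjusted p that misses the threshold does not show that these genes were level.

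**Figure D5:**
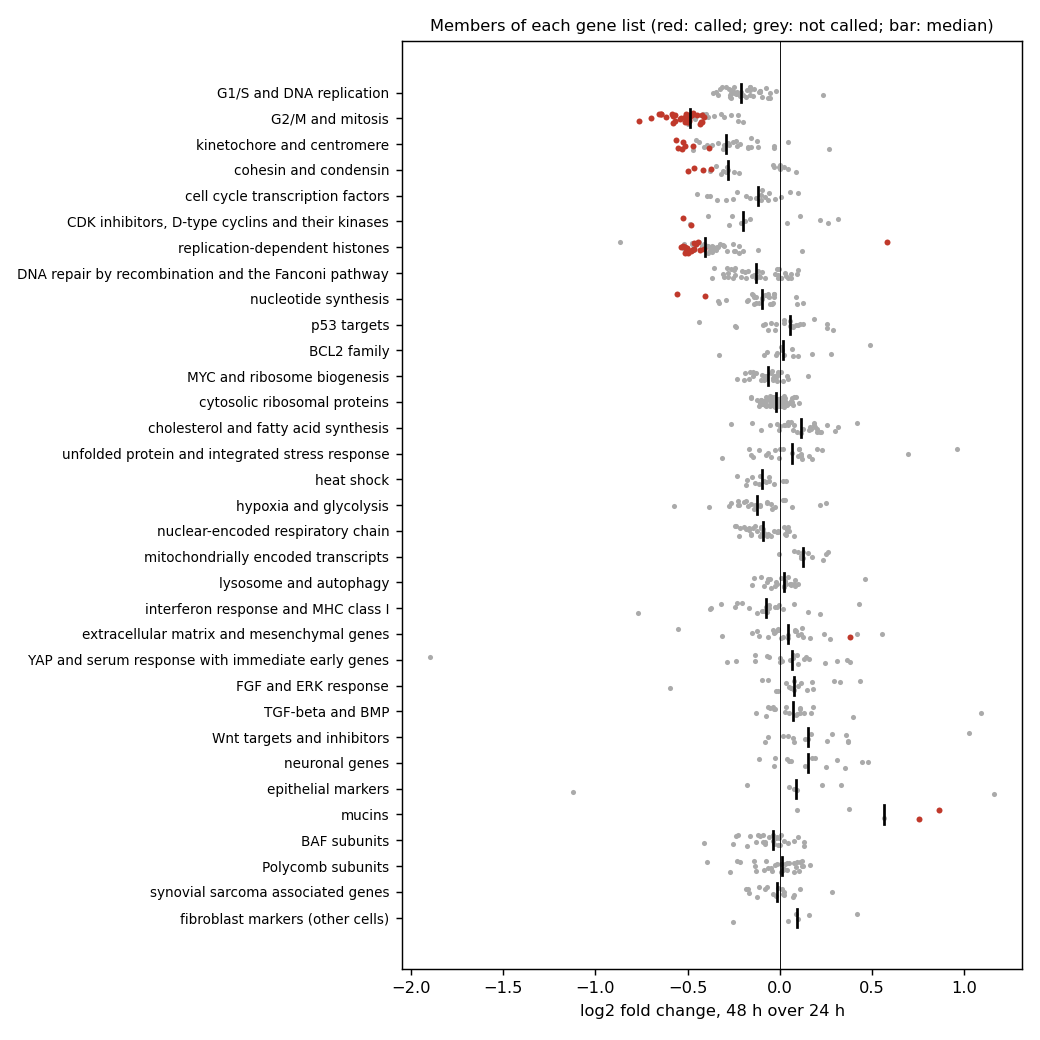
The log2 fold change at 48 h against 24 h of every measured gene is plotted for the 33 lists with at least 5 measured members, with called genes in red, others in grey and a bar at each list's median. The G2/M list has its median at -0.49 with all 44 genes below 0, the histone list at -0.41 and the mucins at 0.56, while ribosomal proteins lie tightly around -0.02.

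Whether the step to 48 h differed from the steps beside it was tested gene by gene in the same fit. The difference of the step from 24 h to 48 h less the step from 12 h to 24 h was called for 4 genes, all lower (0.0244% of genes tested): KIF20A at -1.13 (SE 0.191), NEK2 at -0.95 (SE 0.169), CCNB1 at -0.90 (SE 0.153) and CCNA2 at -0.89 (SE 0.155), each on the log2 scale with an adjusted p of 0.0392. Before adjustment 235 genes were higher and 316 lower. CCNB1 had 121 and 110.0 CPM at 12 h, 142 and 134 CPM at 24 h, 89.3 and 87.1 CPM at 48 h and 95.0 and 93.6 CPM at 96 h, a course that went up and then down. Over the G2/M list the median difference was -0.66, where that over all genes tested was -0.0029. The 24 h libraries enter both steps with opposite sign, so a deviation of theirs would enter each, and without 24 h replicate 1 all 4 genes lost the call, with an adjusted p of 1.00. No more than 1 gene was called without any 1 library of 12, 24 or 48 h, while 15 to 33 were called without 1 of DMSO or 96 h.

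For the step from 48 h to 96 h less the step from 24 h to 48 h, SCD alone was called, at -1.10 (SE 0.159, adjusted p = 0.00725), or 0.0061% of genes tested. Before adjustment 545 genes were higher and 475 lower. SCD had 1413 and 1129.6 CPM at 12 h, 1661 and 1668 CPM at 24 h, 2221 and 1921 CPM at 48 h and 1244 and 1165 CPM at 96 h, against 2314 and 2222 CPM in DMSO, so that its 48 h libraries stood nearest the vehicle. Without 48 h replicate 1 its adjusted p was 0.313, and without 24 h replicate 1 the test called 0 genes. Leaving out a DMSO library gave 33 or 34 calls, 96 h replicate 1 gave 49, 96 h replicate 2 gave 5 and 24 h replicate 2 gave 2. The G2/M list had a median difference of 0.58 here and 0 members called. At 96 h against 48 h its median fold change was 0.10, so its level at 96 h remained below that of 24 h.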

How the data were processed

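RNA of HS-SY-II cells under 100 nM WA-68 or DMSO was sequenced as stranded poly(A) libraries with 150 bp paired reads, per the labels. The submitters' processing notes name bcl2fastq, FastQC, Trim Galore, cutadapt, STAR, featureCounts and GRCh38. Not given in the sources used here are tool versions, the gene annotation used, the strandedness option and how reads with several hits were counted. The deposited table holds raw read counts of 63140 gene identifiers, whole numbers with no normalization by the authors, and 62541 identifiers had a symbol. Depth is that of counts assigned to genes, and its sampling error is part of the count model.

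From these counts, genes were kept by edgeR's filterByExpr by group, which left 16382, and libraries were scaled by TMM. CPM are TMM-scaled. A model with 1 mean per group was fitted to all 10 libraries with edgeR 4.0.16 (quasi-likelihood F test, R 4.3.3), with 5 residual and 18.5 prior degrees of freedom. The common biological coefficient of variation was 7.17%. Calls were made where the Benjamini-Hochberg adjusted p over all genes tested was under 0.05. All adjusted p-values are from this test. The standard error is the fold change over the square root of F. Replicates are labelled biological replicates of a single line, so p-values measure the spread between such cultures, pooled over groups. Replicates correlated at Pearson 0.989 to 0.991 over log2 CPM across genes. The test was tried on simulated data first.

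Positions are GENCODE on GRCh38 (15700 of 16382 identifiers matched), and promoters are RefSeq on GRCh38.p14. Members, the 35 gene lists (935 genes) and motifs were chosen with earlier results of these data known. Named genes were, among called genes of at least 5 CPM whose libraries did not overlap, the 12 largest rises and falls and the 8 smallest p each way, up to 4 called members of each list or the 2 with the most counts, and a few set by name. Other genes were named after their values were seen, to give the roles within a list. The alternatives were other scalings, filters, tests (DESeq2 1.42.0, limma-voom 3.58.1, glmTreat against 1.5-fold), thresholds and libraries left out. Chosen after the data were seen were the fit without replicate 2 of both DMSO and 96 h and a GC offset per library.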

Additional observations from a re-analysis of the deposited data

Results flagged for a closer look

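Genes are given here where the step from 24 h to 48 h differed from a neighbouring step by the test of that difference. Chance alone can give such a gene, since the test was run on 16382 genes at an adjusted p under 0.05. The step to 48 h less the step to 24 h was lower for KIF20A by a log2 difference of -1.13, for NEK2 of -0.95, for CCNB1 of -0.90 and for CCNA2 of -0.89. All 4 are mitotic or cyclin genes with their highest group mean at 24 h. Leaving aside stricter thresholds and glmTreat, their calls held under 14, 12, 13 and 13 of 21 alternatives, in the same order. The step to 96 h less the step to 48 h was lower for SCD by a log2 difference of -1.10, and on the same count this call held under 18 of 20 alternatives. With glmTreat, which tests against a minimum fold change, none of these 5 differences was called. The replicates of SCD at 48 h, 2221 and 1921 CPM, both lay above those at 24 h and at 96 h.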

How the results depend on the processing

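All 44 G2/M fold changes were below 0 under every alternative run, and none of the 124 called genes changed sign. Counts of calls moved with the setting, given as genes higher and lower at 48 h against 24 h, 32 and 92 in the fit of the report. No filter gave 69 and 158, only the 4 libraries 163 and 261, no DMSO and 96 h libraries 165 and 263, no replicate 2 of DMSO and 96 h 168 and 272, a GC offset 104 and 221, an adjusted p under 0.01 7 and 31, a log2 fold change of at least 1 2 and 0, and glmTreat against 1.5-fold 0 and 0. Library size alone and DESeq2 each gave 21 higher. The higher share of calls was 25.8%, and 38.4%, 38.6% and 38.2% in the first 3 fits with fewer libraries. G2/M genes called lower, 31, were 18 at 0.01 and 0 with the fold limit and with glmTreat. G1/S genes called lower, 0, were 6, 4 and 6 in the fits with fewer libraries and 5 with the GC offset. Histone genes called lower, 15, were 37 with no filter, 43 in each fit with fewer libraries, 34 with the GC offset, 1 at 0.01 and 0 with the fold limit and with glmTreat. For the step to 48 h, 4 genes, the count was 0 with upper-quartile factors, library size alone, glmTreat and 0.01, 1 with the fold limit, 16 in DESeq2, 40 with no filter, 65 with the GC offset, and 82 and 87 without DMSO and 96 h and without replicate 2 of both. For the step to 96 h, 1 gene, it was 0 with glmTreat, 19 in DESeq2, 63 with no filter, 76 with the GC offset and 83 without replicate 2 of both. The causes were not tested, except that a stricter limit acts by construction. Leaving out each library gave 1 to 67 genes higher and 0 to 155 lower, 0 to 36 G2/M, 0 to 1 G1/S and 0 to 34 histone genes, 0 to 33 for the step to 48 h and 0 to 49 for the step to 96 h. The replicates share only a number (correlation of replicate differences 0.0116 between 48 h and 24 h), and a fit with the replicate block gave 22 higher and 71 lower, with 27 G2/M, 13 histone and 0 G1/S genes, 4 for the step to 48 h and 1 for the step to 96 h. In a 150-base window around the start TTTGAA was present in 61.1% of G2/M and 6.91% of all promoters. At this depth, genes of a few CPM have wide errors.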
